A study of Mus musculus with 12 samples.

Results

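Tmem176a and Tmem176b are 2 adjacent mouse genes for small membrane proteins, described here in cultured mesenchymal cells of the small intestine with and without MyD88 and with and without LPS. They were picked by gene name from the deposited tables, 2 of 14907 genes listed there, because Tmem176b was lower in MyD88ko cells with LPS than in wt cells with LPS. Both had values in all 12 libraries, and both were among the 12385 genes that passed the filter on low values (a group mean of 10 or more in some group). LPS, from the outer membrane of Gram-negative bacteria, is sensed by TLR4, a receptor that signals through the adaptors MyD88 and TRIF.

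The measurements were normalized read counts from 3′ mRNA sequencing, which reads transcripts near their 3′ ends. There were 4 groups of 3 libraries, all from C57/Bl6 mice. MyD88ko with LPS and MyD88ko untreated had the genotype ColVIcre-MyD88F/F-RosamTmG. In these cells a Cre recombinase driven by the collagen VI promoter deletes the floxed Myd88 gene. The labels give wt with LPS and wt untreated as MyD88F/F-RosamTmG, so all 4 groups carried the floxed gene and the fluorescent reporter. The design text calls the wt cells Cre-positive while their genotype label holds no Cre. If the label is right, loss of MyD88 and presence of Cre cannot be told apart. All cells were primary cells at passage 3, sorted on GFP and starved of serum overnight, and LPS was given at 2 µg/ml for 6 hours. The labels give no age, and they do not say whether replicates came from separate animals, so the p-values measure the spread between libraries, which may be technical.

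TMEM176A and TMEM176B span the membrane several times and are related to the MS4A family, to which the B-cell protein CD20 belongs. They sit mainly in membranes inside the cell, where they have been described as cation channels. In the mouse they are best known from dendritic cells, macrophages and RORγt-positive lymphocytes. There TMEM176B has been tied to antigen presentation and to restraint of the inflammasome, the complex that activates interleukin-1β.

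Both genes lie on mouse chromosome 6 and point away from each other. Tmem176a (ENSMUSG00000023367, 48840919 to 48847071, mm10) is on the plus strand. Tmem176b (ENSMUSG00000029810, 48833818 to 48841496) is on the minus strand. Both intervals are the same in GENCODE M21, which gives Tmem176a 7 transcripts and Tmem176b 12. The gene models overlap by 578 bases at their 5′ ends, and their 3′ ends, where the reads of such libraries arise, lie 13253 bases apart. Whether the authors counted reads by strand is not given in the sources used here. RefSeq (GRCm38.p6) places a Tmem176a start at 48841483 and a Tmem176b start at 48841374, 109 bases apart on opposite strands. The windows from 250 bases before to 50 bases after these starts share 208 bases, which the sequences below show from each gene's own strand. Capitals mark the only match to the NF-κB consensus (both strands searched), which is the same 10 bases, 48841397 to 48841406, in both windows.
Tmem176a, chr6:48841233-48841532, plus strand: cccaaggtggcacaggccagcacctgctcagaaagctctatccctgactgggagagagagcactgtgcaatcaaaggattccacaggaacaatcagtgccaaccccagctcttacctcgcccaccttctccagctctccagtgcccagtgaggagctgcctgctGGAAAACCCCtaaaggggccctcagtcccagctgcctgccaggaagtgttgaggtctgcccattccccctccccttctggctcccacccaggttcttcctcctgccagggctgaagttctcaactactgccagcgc
Tmem176b, chr6:48841325-48841624, minus strand: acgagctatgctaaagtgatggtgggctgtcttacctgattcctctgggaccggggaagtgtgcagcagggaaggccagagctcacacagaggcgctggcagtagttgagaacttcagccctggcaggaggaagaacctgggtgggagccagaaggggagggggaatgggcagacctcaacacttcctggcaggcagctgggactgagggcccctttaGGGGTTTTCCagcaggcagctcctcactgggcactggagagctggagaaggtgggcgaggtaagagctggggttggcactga
The match lies between the starts, and on the minus strand reads GGGGTTTTCC. A match to this consensus was found in 4.51% of 32851 RefSeq windows of this length. The other 3 windows listed for the pair held none. Neither the AP-1 motif TGANTCA, the STAT motif TTCNNNGAA, the C/EBP motif TTNNGCAA, the nuclear receptor half-site AGGTCA nor TATAAA occurred on either strand of the 5 windows. These letters are in 7.81%, 8.3%, 10.8%, 16.3% and 13.6% of all windows, in that order. A match is a description of the sequence and does not show that a factor binds there.

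Myd88, the adaptor that the Cre deletes, separated the genotypes. With LPS its normalized counts were 24, 22 and 5 in MyD88ko, against 171, 204 and 213 in wt. In untreated cells they were 14, 8 and 10 in MyD88ko, against 99, 98 and 103 in wt. Depth, estimated from the rounding of the values and therefore approximate, ran from 2.50 to 5.30 megareads per library. It gives a counting error of about 1.57% to 5.73% for either member in a library. Library codes are lower for all untreated than for all LPS libraries, and within each treatment lower for all MyD88ko than for all wt libraries. In every comparison, genotype comparisons included, the groups and the order of library codes therefore cannot be told apart.

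Tmem176b was highest in wt cells with LPS. Its normalized counts were 429, 464 and 453 in MyD88ko with LPS, against 2038, 2044 and 1478 in wt with LPS. In untreated cells they were 276, 455 and 331 in MyD88ko, against 1014, 870 and 699 in wt. The wt libraries with LPS stood above all others and the untreated wt libraries came next, with no overlap. The lowest levels were those of MyD88ko with LPS and MyD88ko untreated, whose ranges overlapped (429 to 464 and 276 to 455).

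Tmem176a had the same groups with the highest and the lowest mean, but other groups overlapped. Its normalized counts were 557, 779 and 927 in MyD88ko with LPS, against 3575, 2028 and 3083 in wt with LPS. In untreated cells they were 268, 368 and 260 in MyD88ko, against 1107, 686 and 690 in wt. The untreated MyD88ko libraries were below all others. Unlike for Tmem176b, the MyD88ko libraries with LPS overlapped the untreated wt libraries, at 557 to 927 and 686 to 1107. No test was made of that pair of groups.

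**Figure D1:**
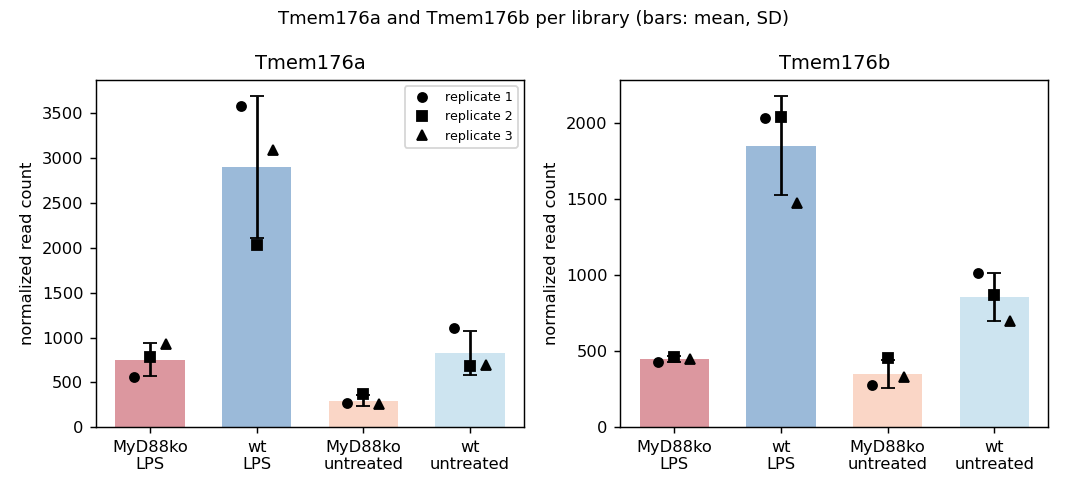
Normalized read counts of Tmem176a (left) and Tmem176b (right) in each library; bars give the group mean and error bars the SD of 3 libraries, and symbols mark the replicate number. Both genes are highest in wt with LPS (means 2895 and 1853), and Tmem176b in MyD88ko with LPS stays near its untreated level (449 and 354).

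In untreated cells both genes were lower in MyD88ko than in wt. The means compared here come from none of the libraries that led to the choice of Tmem176b, and the pair was tested in this comparison alone. The SE and p-values do draw on those libraries, because 1 fit of all 12 estimates the spread. In a fit of the 6 untreated libraries alone the limma adjusted p was 0.00591 for Tmem176a and 0.0113 for Tmem176b. Tmem176a averaged 299 ± 60.2 in MyD88ko and 828 ± 242 in wt (SD, n = 3 each), and fell 2.73-fold (log2 difference −1.45 ± 0.26 SE, limma adjusted p = 0.00431). Tmem176b averaged 354 ± 91.7 in MyD88ko and 861 ± 158 in wt, and fell 2.45-fold (−1.29 ± 0.22, limma adjusted p = 0.00297). All 3 MyD88ko libraries were below all 3 wt libraries for both genes. The same held for 9.89% of all genes tested, and 10.5% had all MyD88ko libraries above. In this comparison 1.88% of all genes tested were called at an adjusted p under 0.05, 1.09% lower in MyD88ko and 0.791% higher. The authors' deposited table gives folds of 0.362 and 0.412 (MyD88ko over wt) for Tmem176a and Tmem176b, with DESeq adjusted p = 0.0165 and 0.0562, so by the authors' test only Tmem176a passes 0.05. By limma without trend Tmem176a was not called (adjusted p = 0.0662) and Tmem176b was (0.0451).

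Untreated wt replicates 1 and 3 held more epithelial transcripts than replicate 2. The summed values of the 8 epithelial markers with values ran from 8 to 12 in MyD88ko untreated and from 13 to 988 in wt untreated. Cldn4, an epithelial tight-junction protein, had 2, 1 and 0 in MyD88ko untreated, against 213, 7 and 122 in wt untreated. The part of these markers in the result was not tested. In replicate 2, the wt library with 7 for Cldn4, Tmem176a was 686 and Tmem176b 870. The highest untreated MyD88ko values were 368 and 455. This is a single library and gives no test of the markers' part. Without wt replicates 1 and 3 together, which leaves a single untreated wt library assumed to vary like the others, the log2 differences were −1.22 and −1.33 and neither gene was called (adjusted p = 0.243 and 0.0933).

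With LPS the gap between genotypes was 4.08-fold for Tmem176b (log2 difference −2.03 ± 0.22 SE), with means of 449 ± 17.9 in MyD88ko and 1853 ± 325 in wt (SD, n = 3 each). This is the difference that chose the gene, and it is given as a description. For Tmem176a the gap was 3.81-fold (−1.93 ± 0.26), with means of 754 ± 186 in MyD88ko and 2895 ± 790 in wt. For both genes the groups did not overlap. The MyD88ko libraries lay below all wt libraries for 8.31% of all genes tested, and above them for 7.54%. Of all genes tested, 1.49% were called in this comparison, 1.04% lower in MyD88ko and 0.452% higher, and by log2 difference Tmem176b was the 149th lowest of 12385. Summed epithelial markers were 4 to 33 in MyD88ko with LPS against 40 to 56 in wt with LPS, and their part in the gap was not tested. Of these markers Krt18 had no values in either LPS group. Cdh1 and Lgr5 had none in MyD88ko with LPS and were at 0 to 2 in wt with LPS.

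The 2 genes differed in how far LPS-treated and untreated cells stood apart. These differences share the LPS libraries with the comparison that chose the pair and are given without a test. In MyD88ko cells Tmem176a was 2.50-fold higher with LPS than untreated (log2 difference 1.32 ± 0.26 SE), with no overlap between groups. Tmem176b was 1.29-fold higher (0.37 ± 0.22), and its groups overlapped. In wt cells Tmem176a was 3.49-fold higher with LPS (1.80 ± 0.26) and Tmem176b 2.15-fold higher (1.11 ± 0.22), both without overlap. In MyD88ko the LPS libraries lay above all untreated ones for 12.2% of all genes tested, and below for 13.3%. In wt they lay above for 17.4% and below for 17.4%. Hepatocyte markers moved with the treatment too. The 3 with values summed in MyD88ko to 4 to 19 with LPS against 112 to 170 untreated, and in wt to 3 to 13 with LPS against 103 to 256 untreated. All 3 were called lower with LPS in both genotypes, and Alb and Serpina3k were at 0 in every LPS library. Summed epithelial markers were in wt 40 to 56 with LPS against 13 to 988 untreated, and in MyD88ko 4 to 33 against 8 to 12. Of the 3 tested, limma called Cldn4 lower with LPS in wt (adjusted p = 0.00523) and Muc2 higher (0.00464). In MyD88ko 0 were called. The part of either set of markers in the levels of the pair was not tested. Of all genes tested, 2.58% were called higher and 3.4% lower with LPS in MyD88ko, and 9.55% higher and 9.66% lower in wt.

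**Figure D2:**
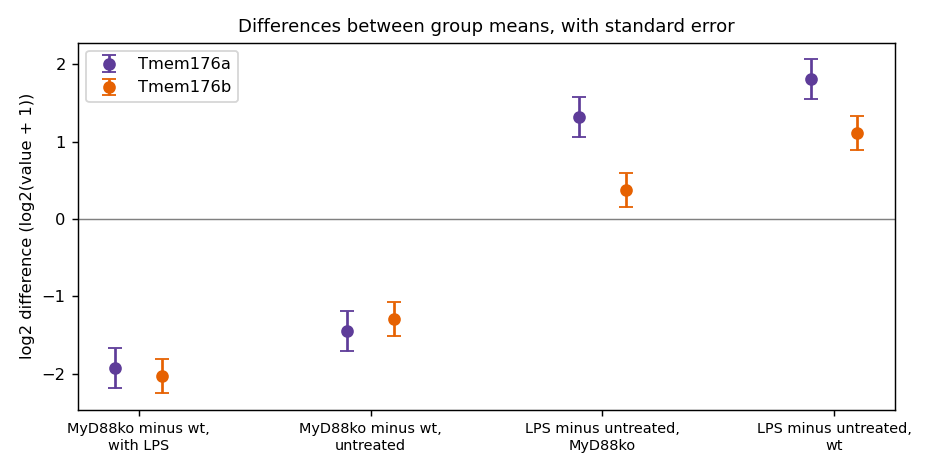
Log2 difference between group means, on the log2(value + 1) scale, for Tmem176a and Tmem176b in each of 4 comparisons, with the standard error from the fit of all 12 libraries. Both genes are lower in MyD88ko with LPS (−1.93 and −2.03) and untreated (−1.45 and −1.29), and higher with LPS in both genotypes, least so Tmem176b in MyD88ko (0.37).

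The ratio of Tmem176a to Tmem176b within a library does not depend on how that library was scaled, apart from the pseudocount. It was 1.30, 1.68 and 2.05 in MyD88ko with LPS, against 1.75, 0.992 and 2.09 in wt with LPS. In untreated cells it was 0.971, 0.809 and 0.786 in MyD88ko, against 1.09, 0.788 and 0.987 in wt. The LPS libraries were above all untreated libraries except wt LPS replicate 2, whose ratio of 0.992 lay among the untreated values. Between untreated genotypes the log2 ratio differed by −0.15, with overlapping groups (exact permutation test, two-sided, p = 0.4, where 0.1 is the smallest p that 3 against 3 allows). Between LPS and untreated cells the mean log2 ratio differed by 0.95 in MyD88ko, without overlap, and by 0.70 in wt, with overlap. Without wt LPS replicate 2 the wt difference was 1.01.

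**Figure D3:**
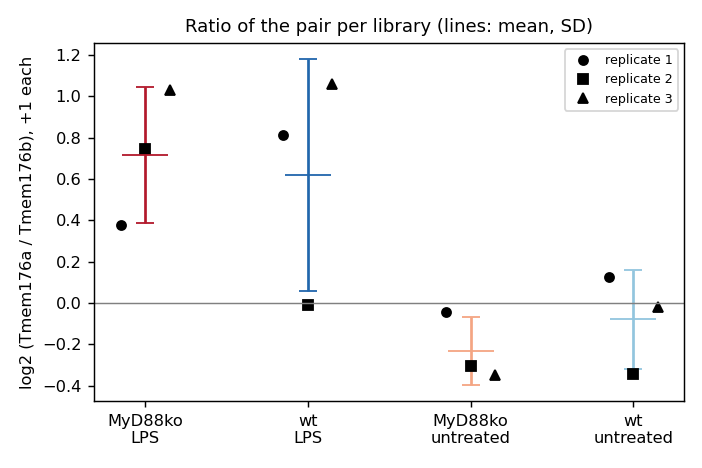
Log2 ratio of Tmem176a to Tmem176b in each library (1 added to each value); short lines give the group mean and error bars the SD of 3 libraries. Libraries with LPS lie between 0.38 and 1.06 except wt LPS replicate 2 (−0.01), and untreated libraries between −0.35 and 0.13.

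Across the 12 libraries the log2 values of the pair correlated at Pearson r = 0.913 (Spearman rho = 0.860), with the group differences included. Among 12384 other genes tested, Tmem176a ranked 14th in likeness to Tmem176b, and Tmem176b ranked 16th in likeness to Tmem176a. After each group's mean was taken off, the deviations of the pair correlated at r = 0.413 (rho = 0.301, n = 12 libraries in 4 groups). In untreated MyD88ko replicate 2 both genes were above their group means, by 0.32 and 0.39 on the log2 scale for Tmem176a and Tmem176b. In wt LPS replicate 2 Tmem176a was 0.47 below its group mean while Tmem176b was 0.16 above.

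The protein-coding genes most like each member were ranked by Pearson r. The 5 most like Tmem176b were Sod3 (extracellular superoxide dismutase, r = 0.979), Nfkbiz (a nuclear NF-κB regulator, 0.954), Ifi211 (0.951), Lgi2 (0.942) and Mmp10 (a matrix metalloproteinase, 0.933), all over 12 libraries. With LPS Sod3 averaged 89.0 in MyD88ko against 461 in wt. Untreated it averaged 77.3 in MyD88ko against 202 in wt. As for Tmem176b, its MyD88ko libraries with LPS (74 to 101) and untreated (63 to 91) overlapped. Those of Ifi211 (9 to 20 with LPS and 10 to 20 untreated) and Lgi2 (29 to 50 and 12 to 58) overlapped too. Those of Nfkbiz (19 to 22 with LPS and 8 to 15 untreated) and Mmp10 (14 to 25 and 5 to 12) did not. The 5 most like Tmem176a were the chemokines Ccl7 (r = 0.953) and Cxcl5 (0.952), the iron transporter Slc11a2 (0.945), the NF-κB partner Bcl3 (0.940) and the transcription factor Cebpb (0.939). With LPS Ccl7 averaged 216 in MyD88ko against 1456 in wt. Untreated it averaged 66.7 in MyD88ko against 307 in wt. These correlations describe the pattern over 4 groups and carry no test.

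**Figure D4:**
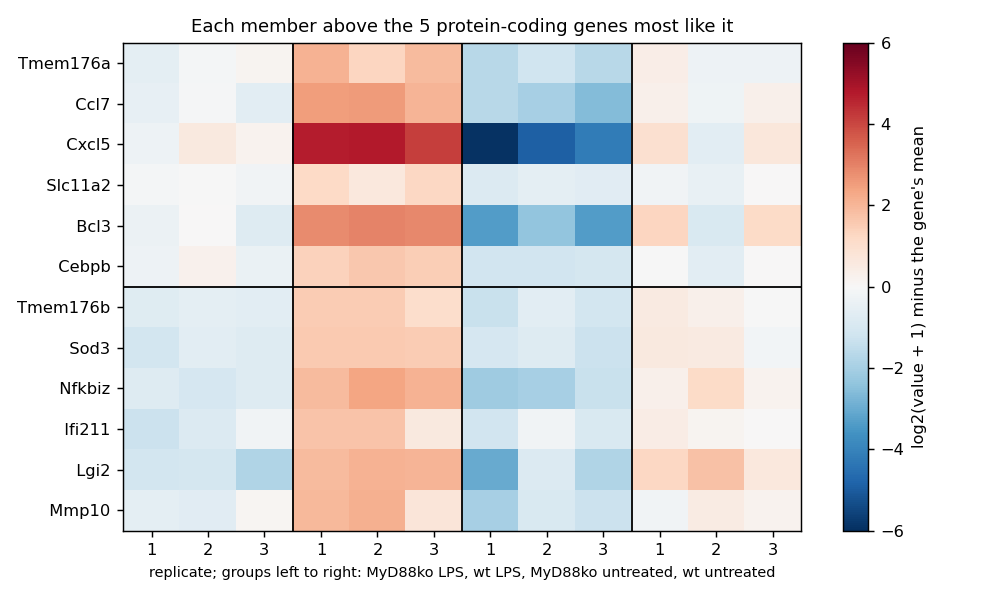
Log2(value + 1) minus the gene's own mean over 12 libraries, for Tmem176a and Tmem176b and, under each, the 5 protein-coding genes with the highest Pearson r to it. All 12 genes are highest in wt with LPS, and in MyD88ko the mean of Ccl7, the gene most like Tmem176a, is 216 with LPS and 66.7 untreated, against 89.0 and 77.3 for Sod3, the gene most like Tmem176b.

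The genes around the pair were read in the same comparisons. Within 500 kb on either side 17 other genes were listed and 15 were tested. Between MyD88ko and wt with LPS limma called 0 of them (2 at an unadjusted p under 0.05), and between MyD88ko and wt untreated it called 0 (4 at an unadjusted p under 0.05). Over all genes tested 1.49% and 1.88% were called in these comparisons, so 0 of 15 is near the background and says nothing particular about the neighbours. Without MyD88ko untreated replicate 1, or without wt untreated replicate 2, 1 neighbour was called between untreated genotypes. The nearest tested gene on each side was Gimap9, a GTPase of lymphocytes 154704 bases away, and Gm7932, 13258 bases away. Gimap9 had values of 1 to 16 and Gm7932 of 0 to 12, near the floor of the data. Gpnmb, a glycoprotein of lysosomes and melanosomes 189475 bases from the pair, was chosen after its values were seen. With LPS it had 273, 213 and 104 in MyD88ko against 378, 271 and 568 in wt. Untreated it had 224, 109 and 69 in MyD88ko against 311, 240 and 299 in wt. Its log2 differences were −1.08 ± 0.40 SE and −1.23 ± 0.40, neither called (limma adjusted p = 0.255 and 0.134).

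Between LPS and untreated cells 1 of the 15 was called in MyD88ko, where 5.98% of all genes were called, and 2 in wt, where 19.2% were. Malsu1, a factor of mitochondrial ribosome assembly 226724 bases away, fell with LPS in both genotypes. It had 332, 430 and 257 in MyD88ko with LPS against 741, 753 and 762 untreated (log2 difference −1.18 ± 0.22 SE, limma adjusted p = 0.0037). In wt it had 282, 223 and 325 with LPS against 1080, 727 and 868 untreated (−1.68 ± 0.22, adjusted p = 4.1e-05). Gm7932 was called higher in wt, with 12, 7 and 11 with LPS against 0, 3 and 0 untreated (adjusted p = 0.0185). Leaving out wt untreated replicate 1 (0.0616), replicate 3 (0.0605) or both (0.423) ended that call, as did a fit of the wt libraries alone (0.0503).

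**Figure D5:**
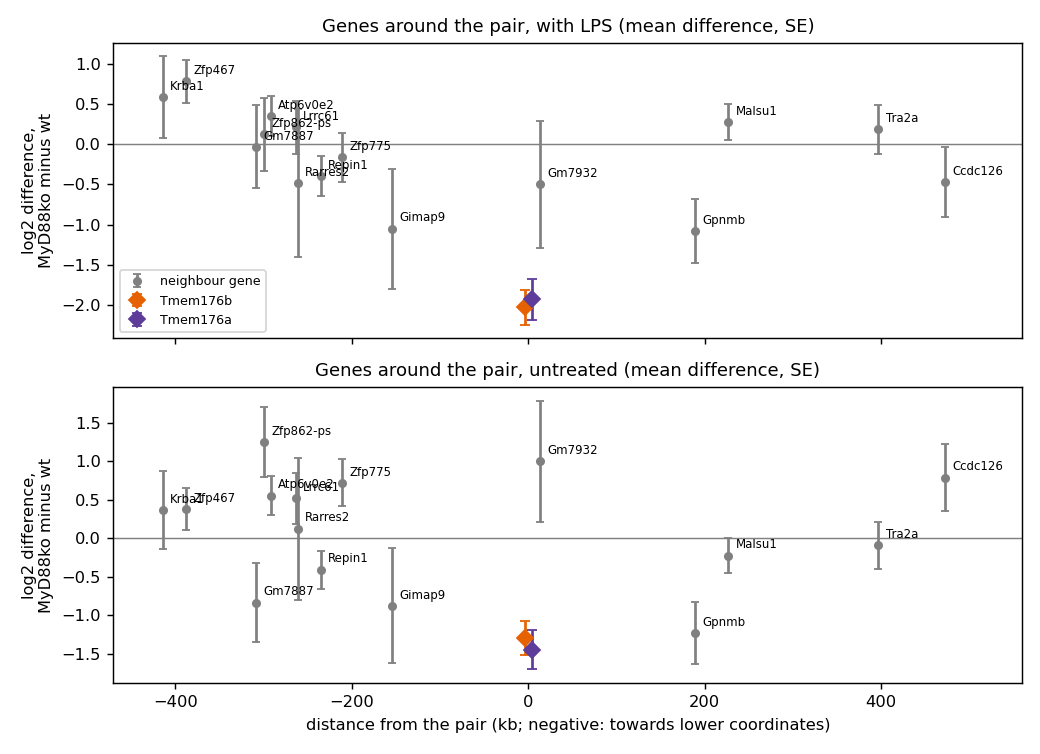
Log2 difference, MyD88ko minus wt, with its standard error, for the 15 tested genes within 500 kb of the pair and for Tmem176a and Tmem176b, by distance from the pair; upper panel with LPS, lower panel untreated. With LPS, Tmem176a and Tmem176b lie at −1.93 and −2.03, below all 15 neighbours, but this is the comparison that chose Tmem176b. Untreated they lie at −1.45 ± 0.26 and −1.29 ± 0.22 SE. Gpnmb is the lowest neighbour in both panels, at −1.08 with LPS and −1.23 ± 0.40 untreated, the latter close to Tmem176b.

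Genes related to the pair by family or by described function were followed in the same fit. Of the Ms4a family, its relatives, 3 genes were listed and 1, Ms4a4d, was tested. Ms4a4d fell in untreated MyD88ko cells, with 62, 59 and 23 against 229, 300 and 304 in wt (6.15-fold, log2 difference −2.62, limma adjusted p = 0.00975). Leaving out MyD88ko untreated replicate 3 (adjusted p = 0.064) or both wt untreated replicates 1 and 3 (0.203) ended the call, as did limma without trend (0.0665). With LPS it had 49, 39 and 9 in MyD88ko against 87, 138 and 107 in wt, and was not called (−2.02, adjusted p = 0.0525). It was called there with the replicate block (0.0144) and in 5 other settings. In contrast to the pair, its mean was lower with LPS than untreated in both genotypes, by 0.73 on the log2 scale in MyD88ko and 1.33 in wt, neither called (adjusted p = 0.427 and 0.0689).

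Of 16 inflammasome and pyroptosis genes, 8 were tested. By limma 0 were called between genotypes with LPS (1 at an unadjusted p under 0.05) and 0 untreated (3 at an unadjusted p under 0.05). With 1.49% and 1.88% of all genes called, 0 of 8 is near the background. Their median log2 differences were −0.39 and −0.50, against −0.0005 and 0.00 over all genes tested. Between genotypes with LPS the 8 went both ways, from −2.39 (Casp4) to 0.50 (Il18). Casp1, the inflammasome protease, had 6, 4 and 16 in MyD88ko with LPS against 14, 15 and 16 in wt with LPS (−0.93). With LPS 1 of the 8, Casp8, a protease of cell death, rose in MyD88ko (3.17-fold, adjusted p = 0.0226), and 0 were called in wt (2 at an unadjusted p under 0.05). Of all genes 5.98% were called in MyD88ko and 19.2% in wt. In wt 1 was called with the replicate block, and 1 without wt untreated replicate 1. The Casp8 call was lost without MyD88ko LPS replicate 1 (0.0583) or 2 (0.121), without MyD88ko untreated replicate 2 (0.112) and in a fit of the MyD88ko libraries alone (0.0694).

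Of 13 genes of MHC class II presentation, 5 were tested, and limma called 0 between genotypes with LPS and 0 untreated, with 0 at an unadjusted p under 0.05 in either. Against 1.49% and 1.88% of all genes, 0 of 5 is near the background. Lgmn, a lysosomal protease, fell with LPS in both genotypes, 2.18-fold in MyD88ko (adjusted p = 0.0046) and 2.06-fold in wt (adjusted p = 0.00237). H2-Ab1, a class II chain, rose with LPS in wt, with 9, 43 and 43 against 3, 4 and 0 untreated (adjusted p = 0.022). Leaving out wt LPS replicate 2 (0.0879) or 3 (0.0929), or wt untreated replicate 3 (0.0992) or both 1 and 3 (0.308), ended this call.

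The pair is known from leukocytes, so markers of other cells were read beside it. Of 21 leukocyte markers 8 had values, summing with LPS to 38 to 67 in MyD88ko against 36 to 143 in wt, and untreated to 43 to 59 in MyD88ko against 53 to 68 in wt. One of them, H2-Aa, had no values in MyD88ko untreated. Cd68, a macrophage protein, was at 0 to 14 in every library and Csf1r, a macrophage receptor, at 1 to 9. Of the 4 tested, 0 were called between genotypes by limma (with LPS 1 at an unadjusted p under 0.05, untreated 0), and the median log2 differences were −1.13 with LPS and −0.04 untreated. With 1.49% of all genes called with LPS and 1.88% untreated, 0 of 4 is near the background. H2-Ab1 had 2, 5 and 30 in MyD88ko with LPS against 9, 43 and 43 in wt with LPS (−1.71). The chemokine receptor Cx3cr1 had 4, 0 and 1 in MyD88ko with LPS against 6, 5 and 24 in wt with LPS (−2.24). The other markers tested were Lyz2, with a log2 difference of −0.56 with LPS, and Itgam, which was higher in MyD88ko (0.26). The part of leukocyte transcripts in the gap of the pair with LPS was not tested. The summed leukocyte markers were below Tmem176a and below Tmem176b in each library. That sum, over 8 of 21 markers, does not measure how much of the pair's RNA came from leukocytes. All 11 fibroblast markers had values, summing with LPS to 131248 to 141849 in MyD88ko against 70613 to 117284 in wt, and untreated to 89025 to 111330 in MyD88ko against 43643 to 101308 in wt. Collagen transcripts make up most of these sums. Of all genes tested, 1.49% were called between genotypes with LPS and 1.88% untreated. Of the 11 fibroblast markers limma called 1 lower in MyD88ko and 0 higher, both with LPS and untreated. At an unadjusted p under 0.05 were 7 of the 11 with LPS and 6 untreated. The median log2 difference was 0.42 with LPS and 0.24 untreated, and the markers went both ways. With LPS they ran from −1.77 (Pdgfra) to 0.96 (Lum), and untreated from −1.84 (Pdgfra) to 1.49 (Lum). The 1 called was Pdgfra, a fibroblast receptor. With LPS it had 131, 144 and 113 in MyD88ko against 383, 589 and 380 in wt (limma adjusted p = 0.00222). Untreated it had 126, 158 and 73 in MyD88ko against 355, 611 and 314 in wt (adjusted p = 0.00162). In bulk samples fewer cells of a type and less RNA per cell cannot be told apart, and the part of Pdgfra-positive cells in the levels of the pair was not tested.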

How the data were processed

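The authors deposited 4 tables, a comparison each. Their per-library values are treated as a score: read counts that the authors normalized and rounded to whole numbers, per the file headers. Per the submitters' processing notes TopHat2, Bowtie2, DESeq and mm10 were used, without versions or roles. The deposited p-values are DESeq's per the file headers, and the deposited fold is the ratio between the groups' means, each plus 1. Each library stands in several tables; 0 of 166719 repeated values disagreed. Library totals of the normalized values were 3599944 to 4320551; reads were estimated from which low whole numbers each library skips, and the errors derived from them cover counting error only. On 44 simulated libraries this estimate was within 1% of the true factor in 40 and off by up to 22.7% in the other 4. The depths are therefore approximate, and no fold or test uses them. The test was limma 3.58.1 (R 4.3.3) on log2(value + 1) (limma-trend, robust empirical Bayes, a coefficient per group, 8 residual degrees of freedom), on 12385 genes with values in all 12 libraries and a group mean of 10 or more in some group, with Benjamini-Hochberg adjustment over all genes of a comparison, two-sided, at 0.05. Folds are on the log2(value + 1) scale. The fit was also run on simulated data in which all genes had the same dispersion (spread beyond counting error). That run does not give the error rate of the fit in these data. Named genes were the pair, Myd88, the nearest and any called neighbours, and up to 4 called list members. The 5 protein-coding genes most like each member by Pearson r were named too. Other genes were chosen after values were seen. Gpnmb is marked so where it is named. Casp1, Casp4, Il18, Cldn4, Cd68, Csf1r, Cx3cr1, Lyz2, Itgam and Pdgfra are among the others, and are list members given as context. The members and lists were chosen with earlier results of these data known. The settings varied were the scaling (TMM-like or quantile), the trend, filters of none and 50, only the groups compared, a replicate block, pseudocounts of 0.5 and 5, a 250 kb window, and leaving out libraries.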

Additional observations from a re-analysis of the deposited data

How the results depend on the processing

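Both members kept their direction in all 4 comparisons under every alternative run. In untreated cells the difference between MyD88ko and wt ranged from −1.61 to −1.22 for Tmem176a and from −1.49 to −1.13 for Tmem176b when 1 library was left out, and limma called both each time (highest adjusted p = 0.0475 and 0.03). Tmem176a lost its call by limma without trend (−1.45, adjusted p = 0.0662) and when both wt untreated replicates 1 and 3 were left out (−1.22, 0.243), and Tmem176b without that pair of libraries (−1.33, 0.0933). The causes were not tested. With LPS, leaving out 1 library moved the difference between MyD88ko and wt between −2.17 and −1.73 for Tmem176a and between −2.18 and −1.95 for Tmem176b. Neighbours called between LPS and untreated wt cells were 1 in place of 2 with a mean of at least 50 (fewer genes tested), with only the groups compared, and when both wt untreated replicates 1 and 3 were left out; they were 1 to 3 when 1 library was left out. Neighbours called between untreated genotypes were 0 to 1 when 1 library was left out. Calls over all genes, MyD88ko against wt untreated, were 74 by limma without trend, 36 without wt untreated replicates 1 and 3 together and 64 to 416 when 1 library was left out, in place of 233. With LPS they were 112 by limma without trend and 85 to 196 when 1 library was left out, in place of 185. Between LPS and untreated they were 425 without trend and 337 to 791 with 1 library left out in place of 741 in MyD88ko, and 973 when both wt untreated replicates 1 and 3 were left out and 1570 to 2722 with 1 left out in place of 2380 in wt. Same-numbered libraries did not deviate together in every pair (correlations across genes from −0.11 to 0.17). Differently numbered libraries had −0.21 to 0.16. Between LPS and untreated wt cells the same-numbered correlations were 0.06, 0.17 and 0.06, against −0.10 to 0.04 for differently numbered libraries. The numbers were not taken as pairing in the main fit, and these correlations do not settle whether libraries were paired. With the replicate block Tmem176a and Tmem176b stayed called in untreated cells (adjusted p = 0.00578 and 0.00217), and 278 genes were called in place of 233. The block also raised the inflammasome genes called between LPS and untreated wt cells to 1, in place of 0.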
